A study of Mus musculus with 33 samples.

Results

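The D-type cyclins, the inhibitors of cyclin-dependent kinases (CDKs) and the *Myc* transcription factors are described here by 10 genes of 17120 in a count table of mouse embryonic stem cell (mESC) differentiation: *Ccnd1*, *Ccnd2*, *Ccnd3*, *Cdkn1a*, *Cdkn1b*, *Cdkn2a*, *Cdkn2b*, *Cdkn2c*, *Myc* and *Mycn*. They were taken by their gene symbols, and all 10 were in the table and passed the filter on low counts, which removed 0 genes. RNA was sequenced from 33 libraries in 11 groups, with 3 libraries per group described as biological replicates. The mESCs came from blastocysts carrying the ScxGFP reporter of the tendon gene *Scx* and were kept on feeder fibroblasts. They were aggregated into embryoid bodies with the BMP inhibitor LDN-193189 and then brought to paraxial mesoderm with the Wnt agonist CHIR and LDN-193189, which gave the starting group (PM, culture day 6). For the tendon and fibrocartilage protocols the methods also name AGN 193109 or all-trans retinoic acid as an addition in this phase, and whether the PM cells sequenced here received either, and which, was not given in the sources used here. All later groups received TGFβ1, FGF2 and the smoothened agonist SAG. The tendon protocol added CD1530, which activates the retinoic acid receptor RARγ, and the fibrocartilage protocol added AGN 193109 (AGN), an inverse agonist of the RARs. No later group lacked both ligands, so a difference between CD1530 and AGN cannot be assigned to either ligand. Both protocols were collected at D6.25, after 0.25 days of induction, then at D6.75 and D7.5 (0.75 and 1.5 days), at D8.5 (2.5 days) and finally at D10 (4 days). PM was collected as embryoid bodies before the medium was exchanged, so a step from PM joins time, medium and culture form, which cannot be told apart. The study calls the replicates independent samples and used more than a single stem cell line, but which line gave which replicate, and whether replicates were separate derivations, was not given in the sources used here.

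D-type cyclins bind the kinases CDK4 and CDK6 and, with them, phosphorylate the retinoblastoma protein Rb, which frees E2F factors to switch on genes of DNA replication. The INK4 inhibitors p16 (*Cdkn2a*), p15 (*Cdkn2b*) and p18 (*Cdkn2c*) bind CDK4 and CDK6, whereas the CIP/KIP inhibitors p21 (*Cdkn1a*) and p27 (*Cdkn1b*) bind cyclin-CDK complexes more broadly. *Cdkn2a* also encodes p19Arf, which stabilises p53 by blocking *Mdm2*, and p53 in turn switches on *Cdkn1a*. *Myc* and *Mycn* encode related factors that pair with *Max* and drive growth and ribosome production, and *Mycn* is prominent in many embryonic progenitors. TGFβ is known for inducing *Cdkn2b* and *Cdkn1a* in many epithelia, hedgehog signalling for inducing *Ccnd1*, *Ccnd2* and *Mycn* in several progenitor types, and retinoic acid for lowering *Mycn* in embryonal carcinoma and neuroblastoma cells.

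Levels were read as TMM-scaled CPM, that is the count of a gene per M counts of its library, corrected by the trimmed mean of M-values. Levels of different genes were compared as CPM per kilobase, over all annotated exons of a gene joined. Transcripts in use can be shorter than this length, so orders, sums and shares between genes are approximate. Library totals were 17.1 to 22.8 M counts, except in AGN at D8.5 replicate 1 with 38.1 M. CD1530 at D6.75 replicate 1 stood apart from its replicates over the whole table, with a chi-square per gene of 20.3 and 21.5 against them where all other replicate pairs had 1.58 to 4.76. Fitted differences named at D6.75, and CD1530 steps named to and from it, are also given without this library. Retinoid response genes checked the labels: 4 of 4 were higher in CD1530 at D10, where their summed level was 598 to 604 CPM against 36.7 to 37.5 in AGN. PM held 3459 to 3562 CPM of pluripotency genes, *Pou5f1* alone being at 701 ± 8.17, beside 109 to 116 of paraxial mesoderm genes, with *Tbx6* at 9.56 ± 0.772 and *Msgn1* at 3.38 ± 0.607 (SD, n = 3). At D10 the cartilage genes summed to 223 to 229 CPM in CD1530 and 2909 to 3042 in AGN, and the tendon genes to 881 to 912 and 1239 to 1298. The tendon markers *Scx* and *Tnmd* were present in both media and lower in the tendon protocol than in the fibrocartilage protocol. Of the 3 tendon genes (*Scx*, *Tnmd* and *Mkx*), 2 were called lower in CD1530 at D10, 0 higher and 1 was not called. At D8.5, 2 were lower and 1 higher. By qPCR at D10, the study reported *Scx* and *Tnmd* as unaffected by CD1530 and *Mkx* as increased. In such bulk libraries, fewer cells of a type and less RNA per cell cannot be told apart.

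The upstream sequences of *Mycn*, *Cdkn2a* and *Cdkn2b* are shown because *Mycn* had the largest early fall and the neighbours *Cdkn2a* and *Cdkn2b* were among the genes with the larger differences between the media at D10. They are taken from RefSeq (GRCm38.p6), lie on the minus strand, are written 5′ to 3′ and end at the last base before the start of transcription or of an overlapping exon. Capitals mark matches to the motifs searched on both strands.
*Mycn*, chr12:12941915-12942086: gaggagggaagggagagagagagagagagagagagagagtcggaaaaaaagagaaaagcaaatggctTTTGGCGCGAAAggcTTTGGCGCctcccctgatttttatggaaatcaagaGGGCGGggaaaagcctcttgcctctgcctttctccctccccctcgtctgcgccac
*Cdkn2a*, far promoter window, chr4:89294654-89294869: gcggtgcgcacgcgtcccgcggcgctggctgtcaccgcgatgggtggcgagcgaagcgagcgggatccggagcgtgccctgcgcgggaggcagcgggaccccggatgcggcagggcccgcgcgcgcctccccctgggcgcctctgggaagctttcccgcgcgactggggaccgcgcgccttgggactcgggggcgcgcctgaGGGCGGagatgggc
*Cdkn2a*, near promoter window, chr4:89282193-89282442: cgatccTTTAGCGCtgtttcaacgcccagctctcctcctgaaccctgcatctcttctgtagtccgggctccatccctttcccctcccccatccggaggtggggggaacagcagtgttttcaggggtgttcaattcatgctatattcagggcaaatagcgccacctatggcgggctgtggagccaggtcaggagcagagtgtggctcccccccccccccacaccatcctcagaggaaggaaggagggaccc
*Cdkn2b*, chr4:89311040-89311282: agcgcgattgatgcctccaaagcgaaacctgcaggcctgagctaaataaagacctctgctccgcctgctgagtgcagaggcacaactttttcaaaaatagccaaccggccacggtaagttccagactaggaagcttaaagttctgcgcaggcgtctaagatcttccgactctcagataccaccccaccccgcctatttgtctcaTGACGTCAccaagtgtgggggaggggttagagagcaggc
The motifs were the E-box CACGTG, the GC box GGGCGG, the E2F site TTTNGCGC, the cyclic AMP response element TGACGTCA (CRE), the TATA box TATAAA and the retinoic acid response element DR5. In the *Mycn* stretch of 172 bases, E2F matches lay at bases -183 to -176 and -168 to -161 from the start, and a match on the other strand at -179 to -172 overlapped the first of these. E2F matches were found in 0.713% of 32544 promoter windows cut to the same stretch. The *Mycn* stretch also held a GC box at -133 to -128, found in 19.915% of such stretches. *Cdkn2a* had an E2F match at -244 to -237 in its near window (1.14% of stretches of that length) and a GC box at -48 to -43 in its far window (28.057%). *Cdkn2b* had a CRE at -46 to -39, found in 1.49% of stretches of that length. No DR5, E-box or TATA letters were found in these 4 stretches. DR5 was searched only as an exact AGGTCA repeat, which 3 of 32544 whole promoter windows held (0.009%). Its absence here therefore cannot show that a retinoic acid response element is missing. A match is a description of letters, and binding was not measured here.

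The genes lay on 6 chromosomes, and *Cdkn2a* and *Cdkn2b* were neighbours. In the GENCODE annotation of GRCm38, *Cdkn2a* (ENSMUSG00000044303) spans chromosome 4, 89274471 to 89294653, and *Cdkn2b* (ENSMUSG00000073802) chromosome 4, 89306299 to 89311039, with 11645 bases between them. *Cdkn2c* (ENSMUSG00000028551) lies farther along chromosome 4, 109660876 to 109667189. *Ccnd1* (ENSMUSG00000070348) is on chromosome 7, 144929931 to 144939925, *Ccnd2* (ENSMUSG00000000184) on chromosome 6, 127125162 to 127152193, and *Ccnd3* (ENSMUSG00000034165) on chromosome 17, 47505051 to 47599691. *Cdkn1a* (ENSMUSG00000023067) is on chromosome 17, 29090976 to 29100727, and *Cdkn1b* (ENSMUSG00000003031) on chromosome 6, 134920401 to 134925513. *Myc* (ENSMUSG00000022346) is on chromosome 15, 61985391 to 61990374, and *Mycn* (ENSMUSG00000037169) on chromosome 12, 12936093 to 12941914. All counts are over exons of a gene, so the *Cdkn2a* count joins the p16 and p19Arf transcripts, which share exons.

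The time course in each medium addresses how these genes changed on the way from paraxial mesoderm to D10. *Ccnd2*, *Cdkn2b*, *Cdkn2c* and *Myc* rose at least 2.95-fold from PM to D10 in both media, and *Mycn* fell at least 7.08-fold in both. *Ccnd1* ended above PM in CD1530 and below it in AGN. A gene was called at an edgeR adjusted p under 0.05 over all 17120 genes. From PM to D10, 9 of the 10 genes were called in CD1530 (8 higher, 1 lower) where 83.2% of all genes were called (43.3% higher, 39.9% lower), and 10 in AGN (8 higher, 2 lower) where 82% were (41.6% and 40.4%), so most genes of any kind changed over this interval. Scaling by library size alone shifted the median of all genes by -0.11 in CD1530 and -0.15 in AGN here, and by -0.10 from D8.5 to D10 in AGN.

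**Figure D1:**
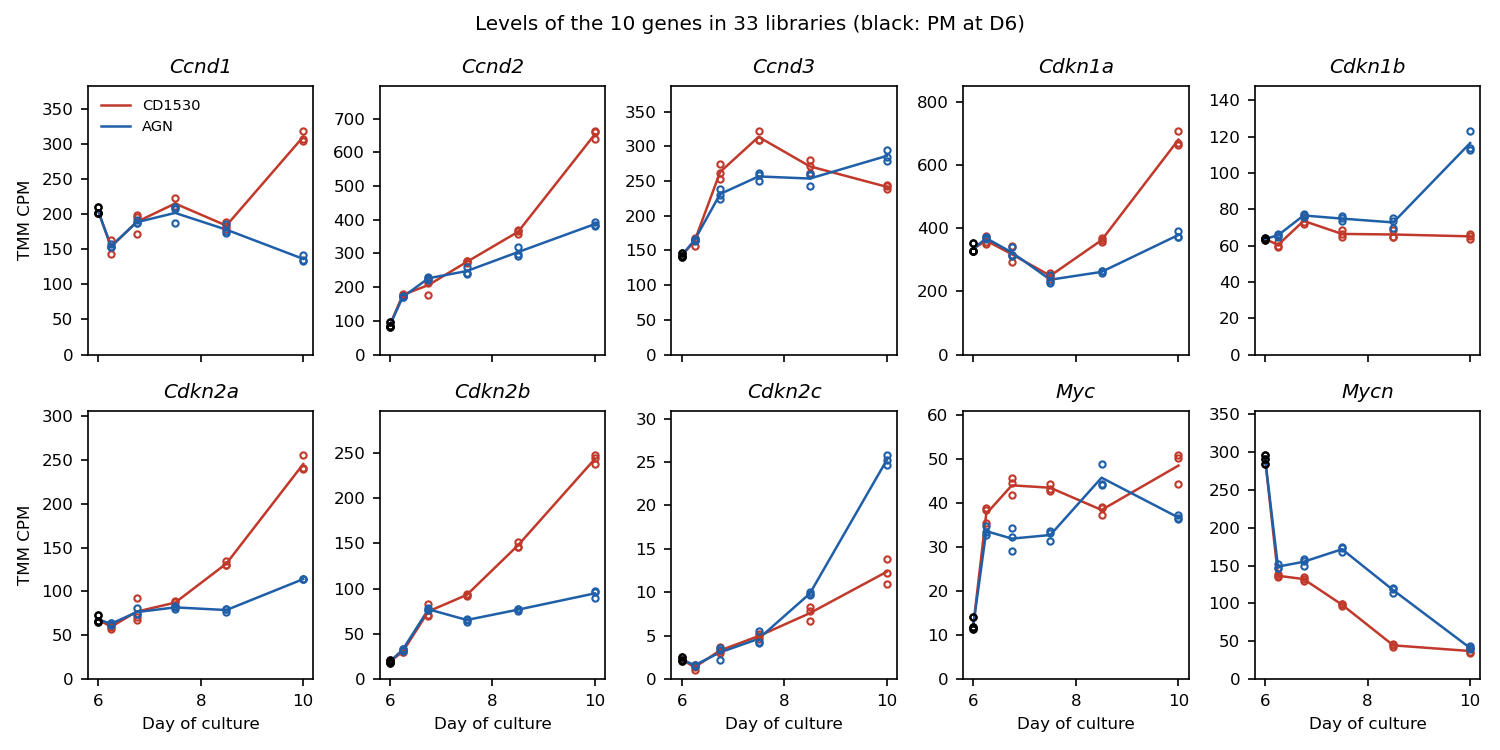
Level of each gene in CPM (vertical axes) in PM and at each culture day in CD1530 and AGN; points are libraries and lines join the means of 3. Mycn falls in both media from 290.3 to 37.0 (CD1530) and 41.0 CPM (AGN), the lines for Cdkn2b separate from D7.5 on, and those for Ccnd1 separate at D10.

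Over single steps the counts of called genes were also near or above the share of all genes. In CD1530, 9 of 10 genes were called from PM to D6.25 (67.8% of all genes), 9 from D6.25 to D6.75 (45.9%), 9 from D6.75 to D7.5 (34.2%), 9 from D7.5 to D8.5 (36.5%) and 9 from D8.5 to D10 (57.3%). In AGN, the counts were 8 (68.1%), 8 (43.7%), 5 (30.3%), 7 (42.1%) and 10 (59.4%). Steps that share a group are not independent of each other. From D8.5 to D10, 7 genes rose in each medium, where 27.4% of all genes rose in CD1530 and 29.9% in AGN. In CD1530 2 fell (29.9% of all genes) and in AGN 3 (29.5%), and the median log2 fold change of the 10 genes was 0.71 in CD1530 and 0.33 in AGN.

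Of the D cyclins, *Ccnd1* was at 209.9, 201 and 201 CPM in the 3 PM libraries. At D6.25 it was at 144, 164 and 153 CPM in CD1530 and 153, 157 and 152 in AGN, below every PM library. The log2 fold change was -0.41 ± 0.047 (SE) in CD1530 and -0.40 ± 0.047 in AGN, with adjusted p-values of 3.3e-10 and 6.16e-10. At D7.5 it was again at 215 ± 6.8 CPM (SD, n = 3) in CD1530 and 202 ± 12.0 in AGN. At D8.5 the media still gave close levels, 179, 188 and 184 CPM in CD1530 and 173, 175 and 185 in AGN. From there the gene rose to 319, 305 and 307 CPM in CD1530 and fell to 135, 141 and 133 in AGN, with no overlap between the media at D10. The step was 0.76 ± 0.046 in CD1530 and -0.38 ± 0.047 in AGN.

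*Ccnd2*, which serves the growth of progenitors in several tissues, was at 97.0, 84.7 and 82.4 CPM in PM. It rose within 0.25 days in both media, with a log2 fold change of 1.01 ± 0.059 in CD1530 and 0.95 ± 0.059 in AGN. At D8.5 its libraries were at 365, 369.9 and 357 CPM in CD1530 and 299.7, 293 and 319 in AGN. At D10 they were at 664, 639 and 659 CPM in CD1530 and 393, 385 and 382 in AGN, which was 7.42-fold and 4.39-fold above PM. The lowest CD1530 library at D10 lay above the highest AGN library.

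*Ccnd3*, known for staying on in differentiating muscle, was at 141, 146 and 142 CPM in PM and differed in its order over time. At D7.5 it was at 322, 309 and 309 CPM in CD1530 and 258, 250.0 and 262 in AGN, higher in every CD1530 library. By D10 the order had turned, with 243, 238 and 244 CPM in CD1530 and 295, 279 and 285 in AGN. Over the last step the gene fell in CD1530 (-0.17 ± 0.037, adjusted p 0.000186), and in AGN the step was 0.18 ± 0.037 (adjusted p 7.42e-05, or 0.0769 with library size scaling).

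Per kilobase of annotated exon, the makeup of the D cyclin transcripts changed. The joined exons were 4709 bases for *Ccnd1* (3 transcripts), 9409 for *Ccnd2* (8) and 8775 for *Ccnd3* (21). Which transcripts were in use was not measured, so the size of each share depends on these lengths. The 3 genes together were at 69.0 ± 1.73 CPM per kb in PM, and *Ccnd1* made up 62.8% ± 0.354 (SD, n = 3) of this sum. At D10 the sum was 163 ± 3.09 CPM per kb in CD1530 and 103 ± 1.38 in AGN. *Ccnd1* then made up 40.4% ± 0.409 of it in CD1530 and 28.2% ± 0.907 in AGN, while *Ccnd2* made up 42.7% ± 0.245 and 40.1% ± 0.160. The share of *Ccnd3* was 16.9% ± 0.216 in CD1530 and 31.8% ± 0.747 in AGN. The rise of *Ccnd2* from 13.6% ± 0.868 in PM was thus common to both media, and the shares of *Ccnd1* and *Ccnd3* differed more between the media than that of *Ccnd2*.

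**Figure D2:**
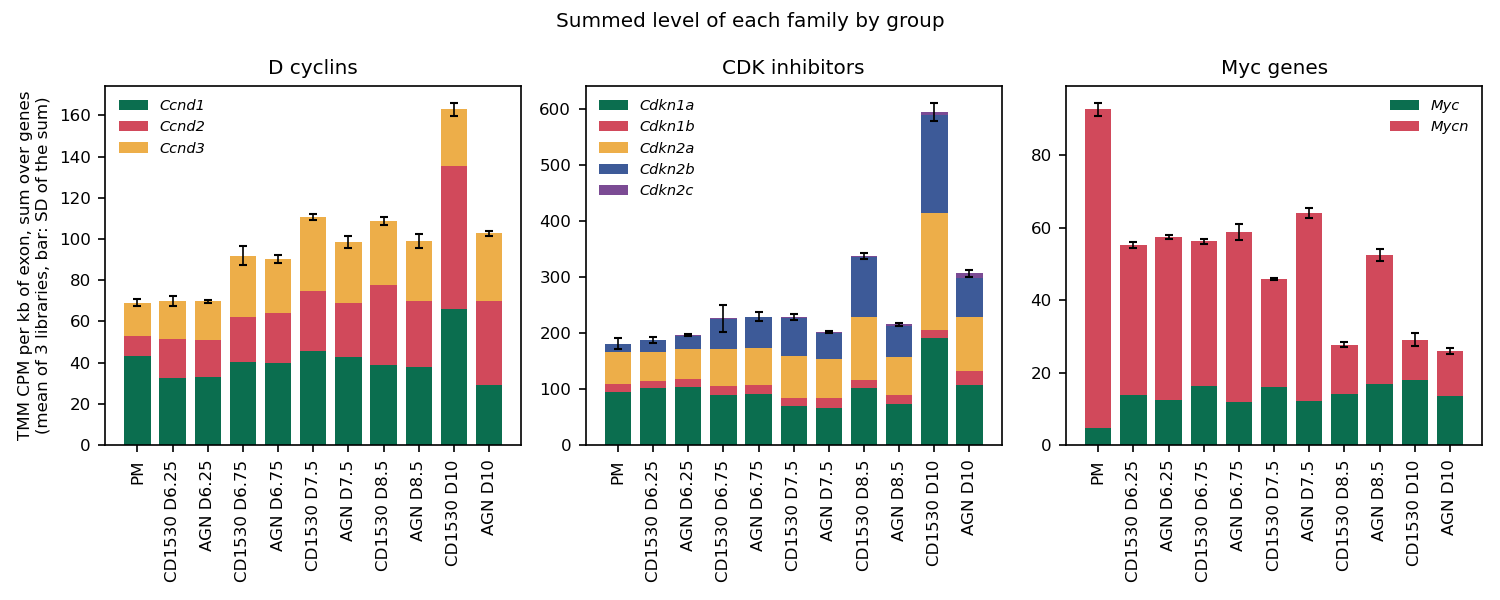
Stacked levels in CPM per kb of exon of the D cyclins, the CDK inhibitors and the Myc genes in each of the 11 groups, as means of 3 libraries. The D cyclin and CDK inhibitor stacks are tallest in CD1530 at D10, and the Myc stack is tallest in PM, where Mycn makes up 95.1% of it.

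Among the CIP/KIP inhibitors, *Cdkn1a* was at 326, 352 and 327 CPM in PM and was the highest of the 10 genes per kilobase there, at 94.3 ± 4.17 CPM per kb. Its lowest group in each medium was D7.5, with 249 ± 9.3 CPM in CD1530 and 237 ± 12.6 in AGN. At D8.5 the libraries were at 368, 361 and 357 CPM in CD1530 and 257, 265 and 263 in AGN. At D10 they reached 661, 708 and 670.0 CPM in CD1530 and 372, 391 and 372 in AGN. The media did not overlap at D8.5 or D10, and the rise over this step was called in both (0.91 ± 0.045 and 0.53 ± 0.045). Over the whole course D10 was 2.03-fold above PM in CD1530 and 1.13-fold in AGN, and the call in AGN was lost with library size scaling (adjusted p 0.6).

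*Cdkn1b*, whose protein p27 holds many quiescent cells out of the cycle, moved least of the 10 genes in CD1530. Its means there ran only from 60.3 CPM at D6.25 to 73.6 at D6.75, and D10 against PM gave 0.032 ± 0.043 (adjusted p 0.496). In AGN its libraries went from 69.4, 73.8 and 75.1 CPM at D8.5 to 114, 123 and 113 at D10, above all other groups. In CD1530 they were at 65.0, 68.7 and 64.6 CPM at D8.5 and 66.6, 65.2 and 63.5 at D10. The late rise was called in AGN (0.68 ± 0.041, adjusted p 6.83e-18) and not in CD1530 (-0.023 ± 0.043, adjusted p 0.68, a log2 change of 0.0036 with DESeq2 size factors, and a called fall of -0.12 with library size scaling, adjusted p 0.0212), and the difference between these steps passed its own test (adjusted p 2.4e-12).

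Among the INK4 genes, *Cdkn2a* was at 64.7, 73.6 and 65.8 CPM in PM and at 92.2, 70.7 and 67.8 in CD1530 at D6.75, where replicate 1 was the highest by far. At D8.5 it was at 131, 134 and 130.1 CPM in CD1530 and 76.6, 79.8 and 79.7 in AGN. At D10 the values were 239, 255 and 241 in CD1530 and 114, 114 and 114 in AGN, so that the media stood apart with no overlap at both times. D10 was 3.60-fold above PM in CD1530 and 1.67-fold in AGN.

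Its neighbour *Cdkn2b* was at 18.9, 21.2 and 18.3 CPM in PM. It rose by 0.64 ± 0.061 in CD1530 and 0.75 ± 0.061 in AGN by D6.25, after 0.25 days in the induction media. TGFβ1, FGF2, SAG and the ligand all began at this step, and their parts in the rise were not tested. The libraries were at 91.9, 94.6 and 92.9 CPM in CD1530 and 63.6, 66.9 and 65.7 in AGN at D7.5, and no library of CD1530 was as low as the highest of AGN from then on. At D8.5 they were at 146, 152 and 146 CPM in CD1530 and 77.4, 77.7 and 75.3 in AGN. At D10 they reached 238, 245 and 248 in CD1530 and 90.0, 96.8 and 97.7 in AGN. D10 was 12.5-fold above PM in CD1530 and 4.87-fold in AGN, the widest change of the 10 genes in CD1530.

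*Cdkn2c* had the lowest level of the 10 genes in PM, with 44 to 47 counts per library (2.11, 2.22 and 2.53 CPM), so its early values are the least precise. It was at 6.70, 7.82 and 8.25 CPM in CD1530 and 10.1, 9.63 and 9.85 in AGN at D8.5. The D10 libraries had 10.96, 12.2 and 13.9 CPM in CD1530 and 24.6, 25.8 and 25.2 in AGN, the reverse of the order of *Cdkn2a* and *Cdkn2b*. D10 was 5.40-fold above PM in CD1530 and 11.05-fold in AGN.

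Summed per kilobase, the 5 inhibitors were at 181 ± 9.45 CPM per kb in PM, 595 ± 16.1 in CD1530 at D10 and 307 ± 6.32 in AGN at D10. The order of the 10 genes per kilobase in PM began with *Cdkn1a* (94.3 ± 4.17), *Mycn* (88.1 ± 1.69), *Cdkn2a* (58.1 ± 4.14) and *Ccnd1* (43.3 ± 1.07). In CD1530 at D10 it began with *Cdkn2a* (209 ± 7.41), *Cdkn1a* (191 ± 6.97) and *Cdkn2b* (175 ± 3.40). In AGN at D10 it began with *Cdkn1a* (106 ± 3.16), *Cdkn2a* (97.3 ± 0.179) and *Cdkn2b* (68.2 ± 3.00). In these 3 groups the libraries of adjacent genes among those named did not overlap; *Cdkn1b* and *Cdkn2b*, next to each other in PM at 14.0 ± 0.122 and 14.0 ± 1.09, did. By this measure the leading 3 at D10 were genes of the inhibitor family in both media, whereas *Mycn* and *Ccnd1* were among the leading 4 in PM. The order between genes rests on the annotated exon lengths, and the *Cdkn2a* count joins p16 and p19Arf.

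*Mycn* and *Myc* moved in opposite directions in the first 0.25 days. *Mycn* was at 296, 291 and 284 CPM in PM. By D6.25 it had fallen to 136, 135 and 139 CPM in CD1530 and 152, 147 and 147 in AGN. The log2 fold change from PM was -1.09 ± 0.041 in CD1530 and -0.97 ± 0.041 in AGN. The summed level of the 7 pluripotency genes also fell over this step. It was 3459 to 3562 CPM in PM, 1659 to 1726 in CD1530 and 1645 to 1677 in AGN at D6.25. Whether the fall of *Mycn* is linked to that of these genes was not tested. *Myc* rose over the same interval from 11.3, 14.1 and 11.8 CPM to 35.6, 38.8 and 38.3 in CD1530 and 32.7, 33.3 and 34.9 in AGN, changes of 1.59 ± 0.072 and 1.43 ± 0.073. All 4 changes had adjusted p-values of at most 1.81e-20.

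After this common start, *Mycn* declined along different courses in the media. At D7.5 it was at 96.3, 99.3 and 99.1 CPM in CD1530 and 173, 168 and 174 in AGN. At D8.5 the values were 45.5, 46.3 and 41.9 in CD1530 and 120.0, 119 and 113 in AGN, and at both times every CD1530 library lay below every AGN library. At D10 they met again, at 34.2, 40.6 and 36.3 in CD1530 and 39.3, 43.3 and 40.5 in AGN, and the libraries overlapped. CD1530 libraries thus reached a low level by D8.5 that AGN libraries reached only between D8.5 and D10, when *Mycn* fell by 1.52 ± 0.047 (log2, SE) in AGN and by 0.27 ± 0.050 in CD1530.

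*Myc* had no single direction. In CD1530 it was at 45.8, 44.6 and 41.8 CPM at D6.75, against 34.5, 29.1 and 32.2 in AGN, with no overlap. At D8.5 the order was the opposite, 37.3, 39.1 and 39.0 in CD1530 and 44.1, 48.9 and 44.3 in AGN, again with no overlap. At D10 CD1530 was higher once more, at 50.9, 50.3 and 44.4 CPM against 36.6, 37.3 and 36.3. Per kilobase, the 2 *Myc* genes summed to 92.7 ± 1.73 CPM per kb in PM, and at D10 to 29.1 ± 1.74 in CD1530 and 26.0 ± 0.791 in AGN. *Mycn* made up 95.1% ± 0.559 of the sum in PM, 48.8% ± 1.66 in CD1530 and 67.9% ± 1.23 in AGN at D8.5, and 38.6% ± 2.58 and 47.9% ± 0.984 at D10. *Myc* transcripts, a small part of the sum in PM, thus came level with those of *Mycn* by D8.5 in CD1530 and later in AGN.

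The steps between D6.25 and D8.5 show where the courses bent. From D6.25 to D6.75, 8 genes rose in CD1530 (25.8% of all genes) and 7 in AGN (24.9%), and *Cdkn1a* fell in both, where 20.1% and 18.8% of all genes fell (-0.18 ± 0.044 and -0.19 ± 0.045). *Cdkn2b* rose most, by 1.30 ± 0.053 in CD1530 and 1.24 ± 0.053 in AGN, and *Cdkn2c* by 1.29 ± 0.18 and 0.94 ± 0.19. Without CD1530 D6.75 replicate 1 the steps in CD1530 were -0.25 for *Cdkn1a*, 1.22 for *Cdkn2b* and 1.202 for *Cdkn2c*. From D6.75 to D7.5 a pair of genes moved in opposite directions in the media. *Cdkn2b* rose by 0.32 ± 0.049 in CD1530 and fell by 0.24 ± 0.050 in AGN (adjusted p 1.52e-06 and 0.000204), and *Mycn* fell by 0.43 ± 0.042 in CD1530 and rose by 0.15 ± 0.041 in AGN (6.75e-11 and 0.0051). Without CD1530 D6.75 replicate 1 this step in CD1530 was 0.40 for *Cdkn2b* and -0.43 for *Mycn*, and 9 genes were called in CD1530 over the step to D6.75 and 9 over the step from it, as with it. With only the compared libraries fitted, 6 genes were called in CD1530 from D6.75 to D7.5 in place of 9. From D7.5 to D8.5 *Mycn* fell in both media, by 1.14 ± 0.046 in CD1530 and 0.55 ± 0.041 in AGN. *Myc* fell by 0.18 ± 0.063 in CD1530 and rose by 0.48 ± 0.062 in AGN (0.0236 and 2.74e-08); the call in CD1530 was lost without replicate 1 of D7.5 (0.074) or of D8.5 (0.0934). *Cdkn2a* rose in CD1530 (0.60 ± 0.065, 4.56e-09) and did not pass in AGN (-0.057 ± 0.066, 0.533). The differences between media in these single steps were not tested apart from the tests over all times below.

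The comparison of CD1530 with AGN at each time asks when the RARγ agonist and the RAR inverse agonist cultures came apart in these genes. At D6.25, 0 of the 10 genes were called by edgeR, where 1.92% of all genes were; 3 had an unadjusted p under 0.05 (*Cdkn1b*, *Myc* and *Mycn*), and DESeq2 called 0. The number called was 3 at D6.75 (18% of all genes), 6 at D7.5 (26.9%), 9 at D8.5 (40%) and 10 at D10 (46.6%). At D8.5, 5 genes were higher in CD1530 and 4 lower, against 20.4% and 19.6% of all genes. At D10, 6 were higher and 4 lower, against 22.7% and 24%. The median log2 fold change of the 10 genes was 0.07 at D8.5 and 0.58 at D10, and the median of all genes was 0.0013 and -0.019.

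**Figure D3:**
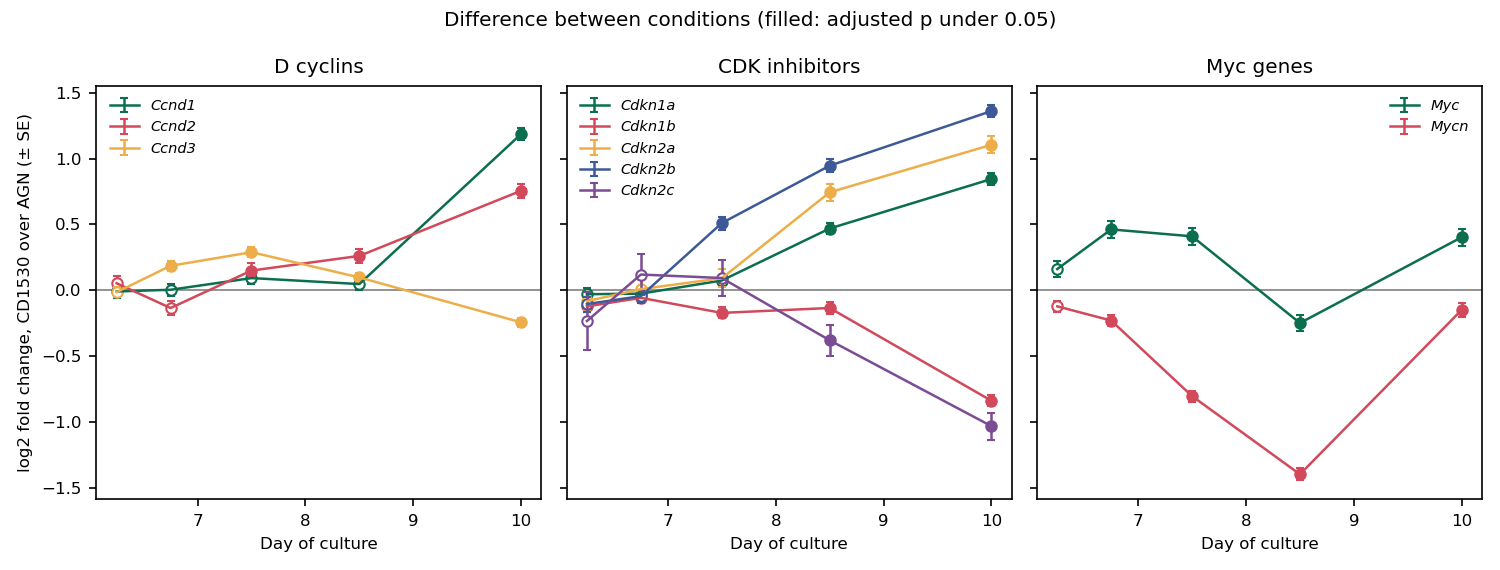
Log2 fold change of CD1530 over AGN (vertical axis) at each culture day for the 10 genes, with bars of 1 SE from the edgeR fit and filled points for called differences. Cdkn2b and Cdkn2a climb from D7.5 to D10, Mycn dips to -1.40 at D8.5 and returns to -0.15 at D10, and Ccnd1 is called only at D10.

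*Mycn* and *Myc* were the earliest to differ, with *Ccnd3*. At D6.75 *Myc* was higher in CD1530 by 0.46 ± 0.063 (SE, adjusted p 2.51e-07), *Ccnd3* by 0.19 ± 0.037 (0.000181), and *Mycn* was lower by 0.23 ± 0.041 (4.45e-05). The call of *Ccnd3* was lost when only the compared libraries were fitted (adjusted p 0.0771). Without CD1530 replicate 1 the values were 0.43 for *Myc*, 0.15 for *Ccnd3* and -0.23 for *Mycn*, and 5 genes were called at D6.75, the added ones being *Cdkn2a* (-0.14, adjusted p 0.024) and *Cdkn2b* (-0.13, 0.034), both lower in CD1530. With all libraries *Cdkn2a* stood at 0.0088 ± 0.067 (adjusted p 0.954), so its sign turned without that library.

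At D7.5 *Cdkn2b* joined the genes higher in CD1530 (0.51 ± 0.049, adjusted p 4.15e-11), with *Myc* (0.41 ± 0.063, 1.81e-06) and *Ccnd3* (0.29 ± 0.037, 3.06e-08). *Mycn* was lower by 0.80 ± 0.042 (3.67e-19) and *Cdkn1b* by 0.17 ± 0.042 (0.00158). *Ccnd2* passed the threshold at D7.5 (0.15 ± 0.055, 0.0428) but not in DESeq2 (adjusted p 0.0728) or in 5 of the 6 fits that left out a library.

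At D8.5 the largest difference was that of *Mycn*, 2.63-fold lower in CD1530 (-1.40 ± 0.046, adjusted p 1.75e-26). The neighbours *Cdkn2b* (0.95 ± 0.048, 4.99e-20) and *Cdkn2a* (0.74 ± 0.065, 2.64e-11) were higher, as was *Cdkn1a* (0.47 ± 0.045, 1.52e-11). *Ccnd2* was higher by 0.26 ± 0.055 (0.000237). *Myc* (-0.25 ± 0.062, 0.00118) and *Cdkn2c* (-0.38 ± 0.12, 0.00773) were lower. *Ccnd3* (0.10 ± 0.037, 0.0309) and *Cdkn1b* (-0.13 ± 0.042, 0.00969) were small differences that passed. Without the deep AGN replicate 1, 8 genes were called and *Ccnd3* was not (adjusted p 0.215). *Ccnd3* also lost its call without CD1530 replicate 2 (0.069) or 3 (0.175) and in DESeq2 (0.0559), *Cdkn1b* without CD1530 replicate 3 (0.05) or AGN replicate 3 (0.0716), and *Cdkn2c* without CD1530 replicate 1 (0.0701). *Ccnd1* did not pass at D8.5 (0.047 ± 0.047, 0.455).

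At D10 the 6 genes higher in CD1530 were led by *Cdkn2b*, 2.57-fold higher (1.36 ± 0.048, adjusted p 1.02e-25). *Ccnd1* was 2.28-fold higher (1.19 ± 0.047, 9.4e-24), *Cdkn2a* 2.15-fold (1.10 ± 0.064, 4.32e-16) and *Cdkn1a* 1.80-fold (0.85 ± 0.045, 1.14e-19). *Ccnd2* (0.76 ± 0.055, 1.45e-13) and *Myc* (0.40 ± 0.064, 1.13e-06) were also higher. The 4 lower genes were *Cdkn2c*, 2.04-fold lower (-1.03 ± 0.10, 2.19e-11), *Cdkn1b* (-0.84 ± 0.042, 2.2e-20), *Ccnd3* (-0.24 ± 0.037, 5.04e-07) and *Mycn* (-0.15 ± 0.051, 0.0155). Each family therefore held genes of both directions. Of the inhibitor family, transcripts of *Cdkn2b*, *Cdkn2a* and *Cdkn1a* were higher in CD1530 than in AGN and those of *Cdkn2c* and *Cdkn1b* lower. Proteins were not measured, and the *Cdkn2a* count does not separate p16 from p19Arf, which is not a CDK inhibitor. The call of *Mycn* at D10 was lost with library size scaling (adjusted p 0.0711), with only the compared libraries (0.0558) and in 3 of the 6 fits that left out a library, without CD1530 replicate 1 (0.176), CD1530 replicate 3 (0.0556) or AGN replicate 2 (0.126).

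An interaction test asks whether the difference between the media itself changed with time. Over the 5 time points it was called for all 10 genes and for 48.8% of all genes, with adjusted p-values from 1.7e-21 (*Cdkn2b*) and 3.8e-21 (*Mycn*) to 8.97e-07 (*Cdkn2c*). From D8.5 to D10 alone it was called for all 10 genes and for 26.8% of all genes. The log2 difference of CD1530 over AGN became more positive for *Mycn* by 1.25 ± 0.069 (SE), for *Ccnd1* by 1.14 ± 0.066, for *Myc* by 0.65 ± 0.089, for *Ccnd2* by 0.50 ± 0.077, for *Cdkn2b* by 0.42 ± 0.067, for *Cdkn1a* by 0.38 ± 0.063 and for *Cdkn2a* by 0.36 ± 0.091. It became more negative for *Cdkn1b* by 0.70 ± 0.060, for *Cdkn2c* by 0.65 ± 0.16 and for *Ccnd3* by 0.34 ± 0.052. For *Mycn* this was the closing of an earlier gap, for *Ccnd1* the opening of a gap, for *Cdkn1b* the widening of one, and for *Ccnd3* and *Myc* a change of sign.

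Some of these genes share exon sequence with genes on the other strand, and the strand setting of the counting was not given in the sources used here. *Ccnd1* shares 1100 exon bases with *LTO1*, which had 14.4 ± 0.71 CPM in CD1530 at D10 and 15.4 ± 1.8 in AGN (-0.10 ± 0.11, adjusted p 0.462). *Ccnd3* shares 361 with *Bysl*, which was higher in CD1530 at D10 (0.32 ± 0.045, adjusted p 6.63e-08), opposite to *Ccnd3*. *Ccnd2* shares 368 and 372 bases with the antisense genes 9330179D12Rik and Gm43126, and *Cdkn1a* shares 273 with AC167363.2. The last 3 have no values here.

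Across the 11 group means, Pearson correlations of log2 CPM describe which genes had like courses; the groups share PM, time and medium, and no test was made. *Ccnd2* and *Cdkn2b* had r = 0.943, and the neighbours *Cdkn2a* and *Cdkn2b* had r = 0.863. *Mycn* ran opposite to *Ccnd2* (-0.898), *Cdkn2a* (-0.84) and *Cdkn2b* (-0.836). Over the whole table, the most alike genes were *Plppr2* for *Ccnd2* (0.991), *Lrrc17* for *Cdkn2c* (0.99), *Wnt9a* for *Cdkn2a* (0.9887), *Itsn1* for *Cdkn2b* (0.9877) and *Castor1* for *Mycn* (0.9867). For *Cdkn1b* it was *Nelfb* (0.9665), for *Myc* *Midn* (0.9626), for *Cdkn1a* *Lif* (0.9454) and for *Ccnd1* *Sh3bgrl2* (0.9347).

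The rest of the pathway gives the setting of the D10 differences, where the median over all genes was -0.019 and 22.7% of all genes were called higher in CD1530 and 24% lower. Of 9 G1 kinases and E cyclins, 1 was higher in CD1530 and 4 lower, with a median of -0.092. The higher gene was *Cdk6*, at 57.3 ± 1.67 CPM in CD1530 and 27.0 ± 1.23 in AGN (1.08 ± 0.080, adjusted p 2.89e-14). *Cdk4*, which encodes the other kinase partner of the D cyclins, was in the list and was not called higher. *Cdk2* (-0.30 ± 0.048) and the E cyclin *Ccne2* (-0.34 ± 0.075) were lower. Of 13 Rb and E2F genes, 3 were higher and 6 lower, with a median of -0.088. Among them *Rb1*, the brake on which D cyclins act, was higher (0.63 ± 0.077, 5.21e-09), as was the repressor *E2f6* (0.15 ± 0.051, 0.0155), and the *Rb1* relative *Rbl2* (-0.34 ± 0.10) and *E2f7*, another repressor, (-0.45 ± 0.074) were lower. The other CDK inhibitors, 3 genes with a median of -0.22, had 0 higher and 2 lower, namely *Cdkn1c* (-0.27 ± 0.062, 0.000619) and *Cdkn2d* (-0.22 ± 0.079, 0.0205).

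Among the 9 pathway lists, that of genes regulated by p53 was the only one whose genes were all called in the same direction at D10. All 11 were higher in CD1530 (median 0.72), and 9 were at D8.5 with 0 lower, where 22.7% (D10) and 20.4% (D8.5) of all genes were higher. At D10 the ligase gene *Mdm2*, whose product degrades p53, had 271 ± 4.60 CPM in CD1530 and 139 ± 3.41 in AGN (0.96 ± 0.035, adjusted p 4.54e-25). The receptor gene *Eda2r* had 142 ± 6.47 and 57.7 ± 0.282 (1.30 ± 0.072, 4.4e-17). The summed level of the 11 genes was 2619 to 2658 CPM in CD1530 and 1479 to 1500 in AGN. In PM it was 1466 to 1487. *Cdkn1a*, itself regulated by p53, and *Cdkn2a*, which encodes p16 and p19Arf in a joint count, differed in the same direction. The activity of p53 was not measured, and a link between these genes was not tested. Of 9 Polycomb genes, whose products repress the *Cdkn2a* and *Cdkn2b* locus in many cells, 5 were higher in CD1530 and 1 lower (median 0.12). Of all genes, 22.7% were higher and 24% lower. With DESeq2 size factors 3 were higher and 1 lower. *Bmi1* (0.27 ± 0.057, adjusted p 9.86e-05) and *Cbx7* (0.16 ± 0.057, 0.0207) were higher and *Phc1* lower (-0.92 ± 0.043, 3.27e-21).

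**Figure D4:**
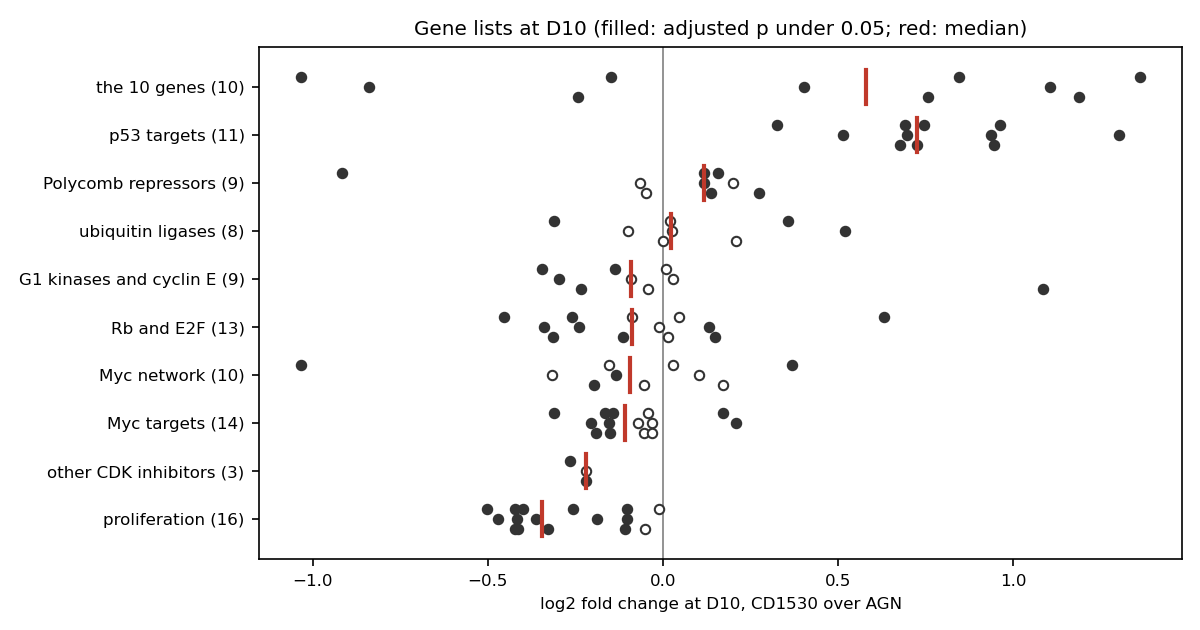
Log2 fold change of CD1530 over AGN at D10 (horizontal axis) for every gene of each pathway list; filled points are called genes and vertical ticks are list medians. The 11 p53 target genes all lie above 0, with a median of 0.72, and the 16 proliferation genes centre on -0.35.

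Proliferation genes lay the other way. Of 16, 0 were higher and 14 lower in CD1530 at D10 (median -0.35), where 22.7% and 24% of all genes were. With library size scaling 11 were lower. *Ccna2* (-0.47 ± 0.036, adjusted p 1.66e-14) and *Aurka* (-0.50 ± 0.047, 4.33e-12) had the most negative values. The summed level of the list was 5550 to 5596 CPM in PM, 2714 to 2746 in CD1530 and 3254 to 3367 in AGN at D10, with no overlap between the 3 groups. *Ccnd1* and *Ccnd2* were thus higher in the medium with the lower level of these genes, as were *Cdkn1a*, *Cdkn2a* and *Cdkn2b*.

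Target genes of *Myc* in ribosome production and metabolism fell over time. All 14 were lower at D10 than in PM in each medium, where 39.9% (CD1530) and 40.4% (AGN) of all genes were, the medians being -1.48 (CD1530) and -1.41 (AGN). Between the media at D8.5, when *Mycn* and *Myc* were both lower in CD1530, 1 was higher and 13 lower, where 20.4% and 19.6% of all genes were. Whether the target genes follow the levels of *Myc* and *Mycn* was not tested. At D10, 2 were higher and 7 lower (median -0.11), with *Rrs1* (0.21 ± 0.043) and *Cad* (0.17 ± 0.049) higher and *Odc1* (-0.31 ± 0.030) and *Gnl3* (-0.21 ± 0.047) lower. Of 10 partners and antagonists of *Myc*, 1 was higher, the related *Mycl* (0.37 ± 0.070, adjusted p 2.61e-05), and 3 lower, among them the antagonists *Mxd3* (-1.03 ± 0.090, 6.46e-13) and *Mnt* (-0.20 ± 0.056, 0.00354). With library size scaling 2 were higher and 2 lower. Of 8 ubiquitin ligase genes in the table (Skp2 was not) that turn over cyclin, inhibitor and *Myc* proteins, 2 were higher, *Fbxw7* (0.52 ± 0.060, 1.22e-09) and *Cul1* (0.36 ± 0.040, 4.48e-10), and 1 lower, *Cks1b* (-0.31 ± 0.053, 3.99e-06), with a median of 0.022. These 3 of 8 ligase genes and 4 of 10 *Myc* partners were called where 46.6% of all genes were.

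Markers of other cell types moved with the D10 contrast too, where 22.7% of all genes were called higher in CD1530 and 24% lower. Neural genes summed to 88.9 to 92.3 CPM in CD1530 and 31.1 to 33.2 in AGN (6 of 8 called higher, *Neurog2* at 0 in AGN), and endoderm genes to 87.6 to 91.1 and 31.5 to 34.0 (3 of 6 higher, 1 lower, median 0.041). In CD1530 most of the endoderm sum was *Foxa1*, at 79.7 ± 1.34 and 16.1 ± 1.63 CPM, and *Foxa2* lay the other way, at 4.28 ± 0.389 and 14.1 ± 1.22. Pluripotency genes summed to 296 to 308 and 420.0 to 430.5, but 4 of 7 were called higher in CD1530 and 2 lower (median 0.22). The lower ones were *Pou5f1*, at 26.6 ± 1.59 and 149 ± 3.23 CPM, and *Tdgf1*, at 30.5 ± 0.368 and 91.8 ± 2.90, and the higher ones were *Nanog*, *Sox2*, *Esrrb* and *Dppa5a*. Endothelial genes summed to 155 to 169.8 and 143 to 153 (3 of 6 higher, 2 lower), muscle genes to 5.61 to 5.96 and 8.69 to 10.2 (0 of 5 higher, 4 lower, *Myod1* at 0 in CD1530) and blood genes to 2.73 to 4.33 and 4.10 to 5.00 (0 of 5 higher, 1 lower). Mitochondrial transcripts made up 1.06 to 1.17% of counts in CD1530 at D10 and 0.840 to 0.924% in AGN, and 0.802 to 0.835% and 0.930 to 0.991% at D8.5, the opposite order. The part of these in the differences of the 10 genes was not tested.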

How the data were processed

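Total RNA of 33 libraries was sequenced by paired-end RNA-seq on a shared lane. The authors aligned reads to GRCm38 with STAR and counted them per gene with featureCounts, and deposited raw counts of 17120 genes with Ensembl identifiers and symbols; the annotation release, strand setting and handling of multiply mapped reads were not given in the sources used here. The 11 groups and replicate numbers came from the sample titles, and 0 columns of per-sample values were left unused. Replicates of a group correlated at 0.99269 or more across genes, no columns were identical, and each pair differed by more than sampling noise (chi-square per gene at least 1.58). The study calls the replicates biological and independent samples, and says that culture experiments were repeated and that more than a single mESC line was used, but does not tie these libraries to separate cultures or lines, so p-values measure the spread between these libraries, which may in part be technical.

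Counts were fitted in R 4.3.3 with edgeR 4.0.16 (quasi-likelihood test, robust, TMM factors, filterByExpr with a minimum total count of 15) over all 11 groups, and p-values were adjusted by Benjamini-Hochberg over all genes at 0.05. The common coefficient of biological variation was 4.68%. Fold changes are fitted values, so they differ slightly from ratios of mean CPM. Depth was 17.1 to 38.1 M counts per library (median 19.9 M). Alternatives were DESeq2 1.42.0, other scalings and filters, a fit that was not robust, only the compared groups, the replicate number as a block, and fits without each single library. The scripts were tested on simulated data. Exon lengths and positions came from a GENCODE annotation of GRCm38, which held 17117 of the 17120 identifiers, and promoters from RefSeq windows of 250 bases before and 50 after the start, found for 7 of the 10 genes (11 windows). Bases within annotated exons were left out of the printed stretches. Figures were drawn in Python 3.11.15 with matplotlib 3.10.9. All 10 genes are named. Of each pathway list the 2 called genes with the most positive and the 2 with the most negative change at D10 are named, and for likeness the gene with the highest correlation of mean log2(CPM + 1) among genes averaging 50 counts or more, leaving out symbols of predicted genes. The genes, the lists and the rules were chosen with earlier results of these data known. The gene most like *Ccnd3* in its course is not reported here.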

Additional observations from a re-analysis of the deposited data

Results flagged for a closer look

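For each of the 10 genes the gap between the media changed over the 5 time points, by edgeR's interaction test (4 degrees of freedom). Adjusted p-values were 1.88e-19 for *Ccnd1*, 3.41e-10 for *Ccnd2*, 2.22e-10 for *Ccnd3*, 5.62e-16 for *Cdkn1a*, 1.76e-14 for *Cdkn1b*, 4.23e-13 for *Cdkn2a*, 1.7e-21 for *Cdkn2b*, 8.97e-07 for *Cdkn2c*, 1.29e-08 for *Myc* and 3.8e-21 for *Mycn*. As 48.8% of all genes were called by this test, a call alone does not set these genes apart.

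The change of the log2 difference from D8.5 to D10, also called for each gene, was 1.14 for *Ccnd1*, 0.5 for *Ccnd2*, -0.34 for *Ccnd3*, 0.38 for *Cdkn1a*, -0.7 for *Cdkn1b*, 0.36 for *Cdkn2a*, 0.42 for *Cdkn2b*, -0.65 for *Cdkn2c*, 0.65 for *Myc* and 1.25 for *Mycn*.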

How the results depend on the processing

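Of 190 gene values in the comparisons, 153 kept direction and call under every alternative and 37 changed under at least 1. In the comparison of CD1530 with AGN at D10, all but *Mycn* kept both. The number of the 10 genes called at D6.25 was 0, and 1 with only the compared groups (*Mycn*, -0.12, adjusted p 0.0185); at D6.75 it ran from 3 to 5 with 1 library left out. Signs turned for small differences, and the cause was not tested. Leaving out 1 library at D6.25 gave *Ccnd1* from -0.059 to 0.035 and *Ccnd3* from -0.032 to 0.015. At D6.75 it gave *Ccnd1* from -0.037 to 0.068, *Cdkn1a* from -0.087 to 0.028, *Cdkn2a* from -0.14 to 0.093, *Cdkn2b* from -0.13 to 0.0014 and *Cdkn2c* from -0.089 to 0.25. Over steps it gave *Myc* from D6.75 to D7.5 between -0.055 and 0.0098 in CD1530 and between -0.029 and 0.096 in AGN, *Cdkn1b* in CD1530 between -0.036 and 0.018 from D7.5 to D8.5 and between -0.040 and 0.0068 from D8.5 to D10, and *Ccnd3* in AGN between -0.038 and 0.013 from D7.5 to D8.5. *Cdkn1b* in CD1530 from D8.5 to D10 was also turned by DESeq2 (0.0036) and its size factors (0.0036), and from PM to D10 by library size scaling (-0.081) and only the compared groups (-0.018).

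*Ccnd2* at D7.5 was not called with DESeq2 size factors (adjusted p 0.0703). *Ccnd3* at D8.5 was not called with them either (0.0575). Over all genes, only the compared groups gave 804 calls against 329 at D6.25 (196 without AGN replicate 3), 1236 against 3076 at D6.75, and in CD1530 5185 against 7853 from D6.25 to D6.75 and 2792 against 5854 from D6.75 to D7.5. Library size scaling moved 52 of 110 mean levels by over 1 SD and DESeq2 size factors 4, at ratios from 0.906 to 1.05. Same-numbered replicates correlated at -0.15 to 0.23 in their deviations, and 11 of 33 libraries were closest to their own number. In CD1530 at D6.75 against D6.25 the values were 0.23, 0.083 and 0.16. Whether the numbers pair the samples cannot be told from this, as pairing between single groups could be missed. The replicate block lost *Ccnd2* at D7.5 (0.0562, 5 genes called there against 6) and changed no other call of the 10 genes.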
